A study of Mus musculus with 7 samples.

Results

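Vascular growth and tone genes are 10 genes that act on blood vessels: the growth factors Vegfa, Vegfb and Vegfc, their receptors Flt1 and Kdr, the endothelial receptors Tek and Tie1, the Tek ligand Angpt2, the dilator peptide Adm and the constrictor peptide Edn1. They were chosen by gene symbol, as every probe set annotated to a member, which gave 13 of the 12422 probe sets of the array that are not controls. All 13 passed the filter on low signal, which kept 8421 probe sets in all, and they stand for 10 of 6326 genes. The signal of 9 of the 13 was above the floor on all 7 arrays; Vegfc, Angpt2, Adm and the second Flt1 probe set were above it on fewer. The floor is a signal of 145.9, the 40th percentile of all values, and lower signals were raised to it before ratios were taken.

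The arrays measured uterine RNA from ovariectomized C57Bl/6 female mice given dihydrotestosterone (DHT), an androgen that aromatase does not turn into estrogen. DHT was injected under the skin at 0.1 mg per mouse 1, 3, 6, 12, 18 or 24 h before death, and the control mice received vehicle 24 h before death. All mice, the controls included, had lost their ovaries 7 days earlier, so no group had ovarian hormones. Each of the 7 groups is 1 array of pooled uteri, with no replicates. The labels give an age of 10 to 11 weeks, which the protocol also gives as the age on arrival, ahead of 4 weeks of acclimation. They name 10 mice without saying whether that is the size of each pool. Only the 24 h DHT array matches vehicle in time since injection; at 1 to 18 h, DHT and the time since injection cannot be told apart.

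Vegfa is the main signal for the growth and leakiness of blood vessels and acts on endothelial cells through Kdr, while Flt1 binds it tightly and largely acts as a decoy. In the uterus, vessel growth and leakiness follow the ovarian hormones, and Vegfa is a known target both of estrogen and of low oxygen. Adm relaxes vessels and seals the endothelium through the receptor Calcrl joined to Ramp2 or Ramp3, and Edn1 contracts smooth muscle.

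Of these genes, Vegfa and Adm stood furthest from vehicle, and both were highest at 3 h. Vegfa was 3.09-fold and Adm 3.78-fold above vehicle on that array, and Vegfa was 2.56-fold above vehicle at 6 h. With signals raised to the floor, the receptors on endothelial cells and Edn1 were within 2-fold of vehicle at all 6 times; with a lower floor, at the 20th percentile, the dimmer Flt1 probe set was at least 2-fold higher at 3 and 6 h. In tests that joined neighbouring times, 0 of 13 probe sets passed after adjustment. No member was thus shown to differ by more than the spread between arrays of a phase, which includes change between its times.

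The sequences ahead of the start sites of these 2 genes are shown because they are the only members that were at least 2-fold from vehicle. Each runs 250 bases up to the start site, 5′ to 3′ on the gene's own strand, from RefSeq on build GRCm38.p6; 9 of the 10 members had an entry, and Angpt2 did not. Capitals mark matches to GGGCGG, the core bound by Sp1, and to GCGTG, a core bound by the hypoxia-inducible factors, on either strand. The Vegfa window lies at chr17:46032378-46032627 on the minus strand and the Adm window at chr7:110627407-110627656 on the plus strand.
Vegfa: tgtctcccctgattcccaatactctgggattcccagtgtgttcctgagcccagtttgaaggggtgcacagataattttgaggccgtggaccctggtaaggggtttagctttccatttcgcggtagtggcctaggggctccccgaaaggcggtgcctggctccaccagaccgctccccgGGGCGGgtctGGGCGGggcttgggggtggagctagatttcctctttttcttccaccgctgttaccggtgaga
Adm: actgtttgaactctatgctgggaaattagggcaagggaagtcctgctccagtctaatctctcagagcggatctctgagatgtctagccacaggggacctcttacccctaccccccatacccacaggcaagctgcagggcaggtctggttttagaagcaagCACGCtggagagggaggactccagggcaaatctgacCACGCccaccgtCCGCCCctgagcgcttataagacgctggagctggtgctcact

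Both strands were searched for ACGTG and GCGTG (cores bound by the hypoxia-inducible factors), GGGCGG (the Sp1 core), AGAACA (the core of the site for androgen and glucocorticoid receptors) and TGANTCA (the AP-1 site). The Vegfa window held GGGCGG 2 times, 72 to 67 and 62 to 57 bases before the start, and none of the other letters. The Adm window held GCGTG 2 times on the opposite strand, 90 to 86 and 54 to 50 bases before the start, and GGGCGG 1 time, 42 to 37 bases before it. No marked match overlapped another. A second Vegfa start site in RefSeq, with its window at chr17:46025164-46025413, held 1 ACGTG, 1 GCGTG and 1 GGGCGG. That window lies downstream of the first Vegfa start site, so its letters are not ahead of the gene as a whole. Over the first start sites of the 9 members with an entry, GGGCGG was in 6 windows, GCGTG in 4, AGAACA in Tek alone, and ACGTG and TGANTCA in 0. Over all 32851 windows of that length, the shares were 32.7% for GGGCGG, 28.2% for GCGTG, 16.6% for ACGTG, 16.1% for AGAACA and 6.75% for TGANTCA. These matches describe letters in the windows and not bound sites.

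The first comparison set the growth factors at each time after DHT against vehicle. The signal of Vegfa was 200.2 on the vehicle array and 371.7, 618.5, 513.2, 282.1, 214.8 and 269.2 at 1, 3, 6, 12, 18 and 24 h. All 6 DHT arrays lay above vehicle, the case for 1 of the 13 probe sets and 12.7% of all tested, and the 3 early arrays (1, 3 and 6 h) lay above the 3 late arrays (12, 18 and 24 h) without overlap. The log2 ratios to vehicle were 0.89, 1.63, 1.36, 0.49, 0.10 and 0.43 in the same order of times. The excess over vehicle was thus smaller on the time-matched 24 h array than at 3 h. Vegfa counted as at least 2-fold higher, with the higher signal at least 291.8, at both 3 and 6 h, as did 0.428% of all tested probe sets. At 1 or more times, 2 of the 13 probe sets (Vegfa and Adm) were at least 2-fold from vehicle, beside 7.6% of all tested. The 13 held 0 such probe sets at 1, 12, 18 and 24 h, where the shares of all tested, in either direction, were 1.13%, 3.14%, 2.41% and 1.92%.

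**Figure D1:**
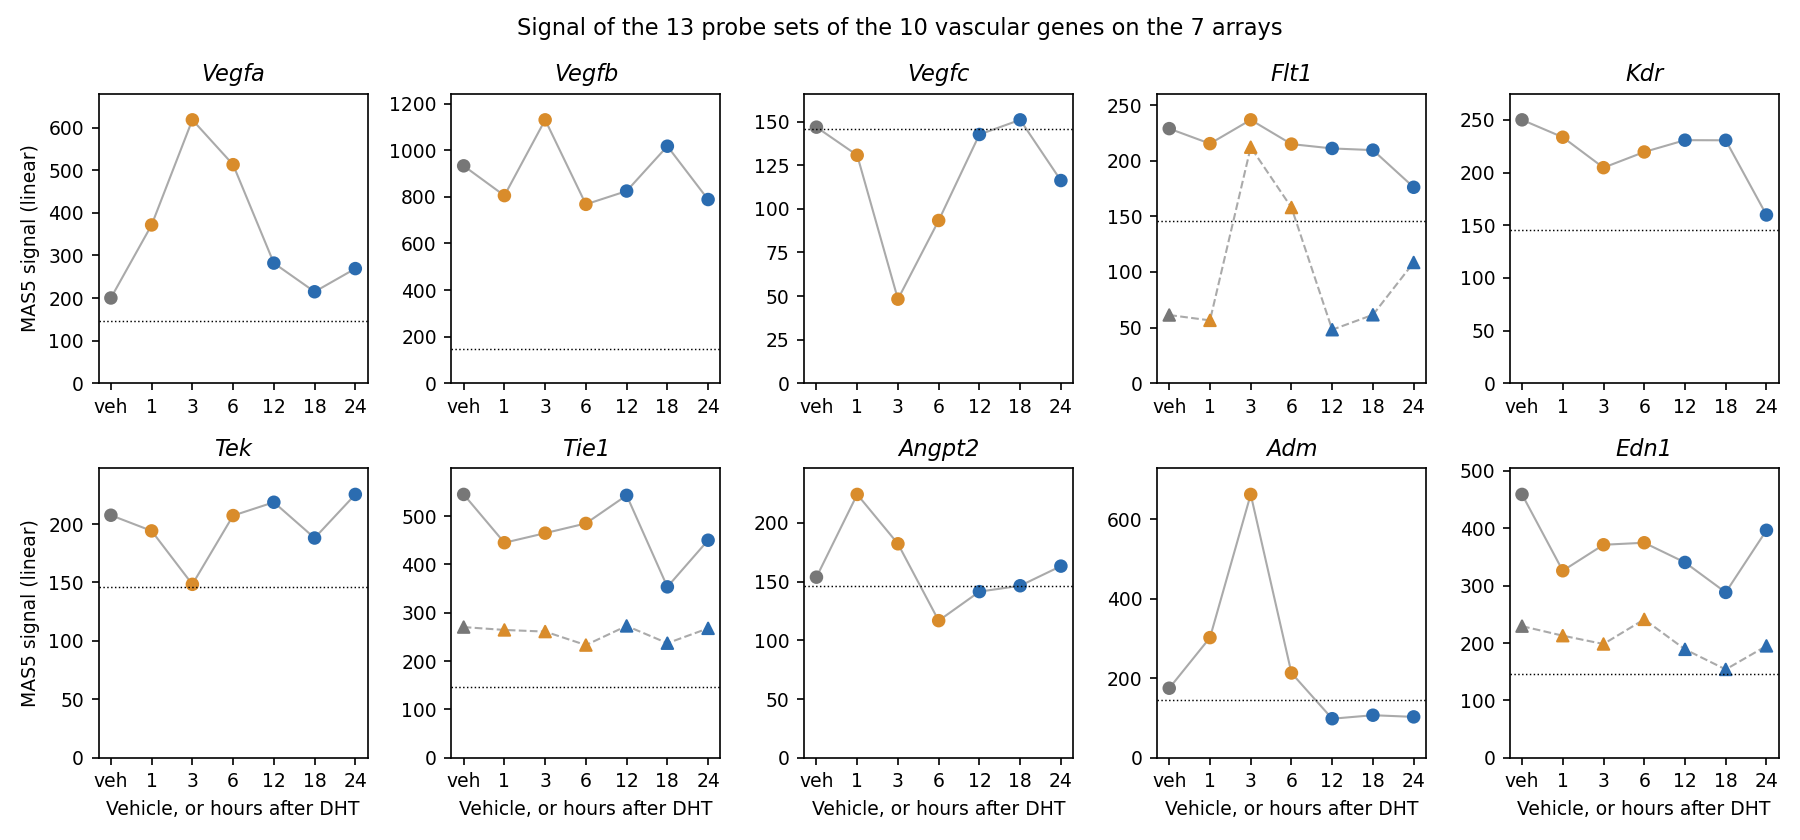
Deposited signal of the 13 probe sets of the 10 genes (linear axes that start at 0, with a scale for each gene) on the vehicle array and at 1 to 24 h after DHT, 1 array of pooled uteri per point. Grey is vehicle, orange early and blue late; triangles and dashes are a gene's dimmer probe set, and the dotted line is the floor of 145.9. Vegfa and Adm reach 618.5 and 662.6 at 3 h, and the dimmer Flt1 probe set is above the floor at 3 and 6 h alone, at 212.1 and 157.9.

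In limma, fitted over all 8421 probe sets with the arrays joined into vehicle, early and late, the early mean of Vegfa was 1.29 ± 0.32 (SE) log2 units above vehicle, with a 95% interval of 0.50 to 2.09 and an adjusted p of 0.484. The late mean was 0.34 ± 0.32 above vehicle (limma, adjusted p = 0.721). Late minus early was -0.95 ± 0.23, with an interval of -1.52 to -0.39 (limma, adjusted p = 0.295). The unadjusted p-values of the first and last of these differences were 0.00775 and 0.00649 in limma. This fit has to give the 1 vehicle array the spread of the DHT arrays, and it takes that spread from different times within a phase. Among all probe sets, 0.273% passed for early minus vehicle, 0.309% for late minus vehicle and 0% for late minus early, and 18 of the 23 and 21 of the 26 that passed were at the floor on all 3 arrays of the phase. At an unadjusted p under 0.05, 1 of the 13 probe sets was higher in early minus vehicle (Vegfa; 2.49% of all probe sets were higher and 3.84% lower) and 2 were lower in late minus early (Vegfa and Adm; 4.49% of all probe sets were lower and 5.76% higher). In late minus vehicle 0 of 13 passed that limit, beside 5.53% higher and 6.19% lower.

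The 3 h array held the highest value of 5 of the 13 probe sets, beside 15.9% of all tested. The 5 were Vegfa, Vegfb, Adm and both probe sets of Flt1, so Flt1 entered more than once. The dimmer Flt1 probe set passed the filter only through 3 and 6 h, so it could be highest only there. The spike-in hybridization controls of the 3 h array had a mean log2 ratio of 0.57 to those on vehicle. The part of this array in the Vegfa and Adm values was tested by leaving it out: without it the early mean of Vegfa stood 1.13 above vehicle and late minus early was -0.78. The 2-fold count rests on the floor as well. With the floor at the 60th percentile, which is above the vehicle signals of both genes, Vegfa stood 0.78 above vehicle at 3 h and neither gene counted.

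Vegfb, which supports existing vessels and binds Flt1, had signals of 933.0 on vehicle and 805.2, 1130.4, 767.8, 824.8, 1017.3 and 788.4 from 1 to 24 h. Its early and late arrays overlapped, its whole range was 1.47-fold, and late minus early was -0.03 ± 0.19 (SE, log2 units). Vegfc, the growth factor of lymphatic vessels, was above the floor on 2 arrays only, vehicle at 146.8 and 18 h at 151.0, and its lowest signal was 48.2 at 3 h. No fold is given for Vegfc, since both values above the floor barely cleared it.

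Pgf, the placental growth factor that also binds Flt1, was the gene of the wider VEGF and angiopoietin list furthest from vehicle on the early mean. Its signals were 144.9 on vehicle and 197.0, 294.4, 170.4, 129.6, 172.0 and 101.9 from 1 to 24 h. It was highest at 3 h like Vegfa and Adm, and its log2 ratio there was 1.01 against a vehicle array at the floor, so the true ratio may be larger. Its early mean was 0.56 ± 0.30 (SE) above vehicle (limma, adjusted p = 0.893).

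The receptors of these growth factors were compared next. Flt1 had 2 probe sets that did not follow each other. The brighter one read 228.8 on vehicle and 215.3, 236.7, 214.9, 211.0, 209.5 and 176.1 from 1 to 24 h, a range of 1.34-fold. Its early arrays all lay above its late arrays, by 0.16 ± 0.10 (SE) log2 units on average (limma, adjusted p = 0.630). The other read 61.3 on vehicle, 56.5 at 1 h, 212.1 at 3 h, 157.9 at 6 h and between 48.1 and 108.5 later. It was above the floor at 3 and 6 h alone, where its log2 ratios to the floor were 0.54 and 0.11, and it passed the filter only through those arrays. Probe sets of 1 gene can read different transcript forms or bind other transcripts, which was not tested.

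Kdr, the receptor through which Vegfa drives endothelial growth, read 250.0 on vehicle and 233.5, 204.6, 219.5, 230.7, 230.6 and 159.7 from 1 to 24 h. All 6 DHT arrays lay below vehicle, as they did for 3 of the 13 probe sets (Kdr and the brighter ones of Tie1 and Edn1) and 16.8% of all tested, and the 24 h array lay lowest. The log2 ratio at 24 h was -0.65, and the late mean was 0.29 ± 0.24 (SE) below vehicle (limma, adjusted p = 0.665). Nrp1, a co-receptor that holds Vegfa to Kdr, had the largest late difference of the wider list. Its signals were 583.7 on vehicle and 542.0, 569.8, 678.6, 865.7, 911.9 and 741.7 from 1 to 24 h. All 3 late arrays were above vehicle and above the early arrays, and the late mean was 0.52 ± 0.19 (SE) above vehicle (limma, adjusted p = 0.386). A dimmer Nrp1 probe set was also above its early arrays on all 3 late arrays, at 451.9 to 585.1. The high arrays of Nrp1 were thus the DHT arrays on which Vegfa was lowest.

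Tek and Tie1 are the receptors of the angiopoietin system, which keeps vessels quiet when Angpt1 binds Tek and loosens them when Angpt2 takes its place. Tek read 207.5 on vehicle and 194.1, 148.4, 207.2, 218.6, 188.0 and 225.3 from 1 to 24 h. It was lowest at 3 h, with a log2 ratio of -0.48, and lay on both sides of vehicle elsewhere. Tie1 had 2 probe sets. The brighter one read 544.8 on vehicle and 444.9, 464.7, 484.8, 542.9, 353.6 and 450.1 from 1 to 24 h, all below vehicle, and its lowest ratio was -0.62 at 18 h. The other stayed between 233.2 and 272.8, a range of 1.17-fold, and its 18 h ratio was -0.19. The low Tie1 value at 18 h was therefore smaller on the second probe set.

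Angpt2 read 153.7 on vehicle and 224.1, 182.1, 116.7, 141.4, 146.4 and 163.1 from 1 to 24 h. It was highest at 1 h, with a log2 ratio of 0.54, ahead of the 3 h peak of Vegfa and Adm. The 6 and 12 h arrays were under the floor. The early mean was 0.24 ± 0.23 (SE) above vehicle, within the spread. On the brightest probe set per gene, all 4 endothelial receptors (Flt1, Kdr, Tek and Tie1) lay below vehicle at 1, 6 and 18 h and 3 of 4 at 3, 12 and 24 h, with Tek at 6 h all but level with vehicle (207.2 against 207.5). Over all 6326 genes, 2960 to 3150 lay below vehicle at a given time. None of the receptor differences passed in limma after adjustment, so a lower level was not shown. In bulk tissue, fewer endothelial cells and less RNA per cell could in any case not be told apart.

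**Figure D2:**
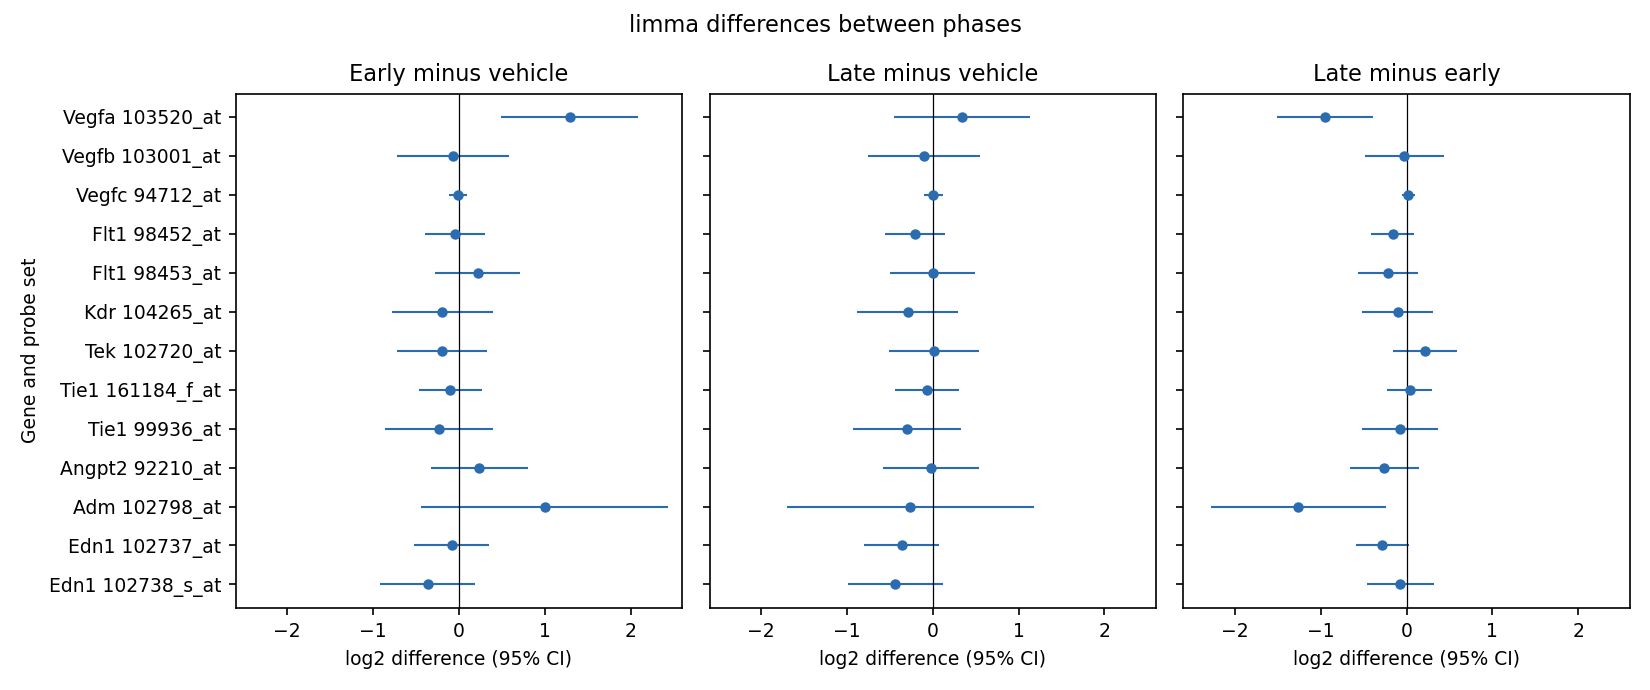
Differences of log2 signal from limma for each of the 13 probe sets, early minus vehicle, late minus vehicle and late minus early, with points for the estimate and bars for the 95% interval. The Vegfa interval for early minus vehicle runs from 0.50 to 2.09, and the Vegfa and Adm intervals for late minus early lie below 0; no difference passed after adjustment over 8421 probe sets.

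Markers of endothelial cells were set beside these genes. Of 20 listed, 14 were on the array and 10 passed the filter; Podxl, Sele, Selp and Prox1 were at the floor. Their summed signal was 7128.9 on vehicle, 6989.1 to 7789.5 on the early arrays and 6808.3 to 7639.7 on the late arrays, so the 3 groups overlapped. Cdh5, the cadherin of endothelial junctions, read 992.2 on vehicle and 877.1 to 1045.1 after DHT. Others ranged more widely: Pecam1, an adhesion protein of endothelial junctions, read 299.1 on vehicle and 191.3 to 413.1 after DHT. At 3 h, 5 of the 10 lay above vehicle and 5 below. The log2 ratio was -0.64 for Pecam1, -0.37 for Emcn, -0.36 for Cldn5, -0.33 for Vwf and -0.18 for Cdh5. It was 0.30 for Eng, the brightest of the list, at 2416.9, and 0.13 for Cd34, 0.13 for Pdpn, 0.11 for Lyve1 and 0.08 for Icam2. Another Emcn probe set had a ratio of -0.19. None of the 10 was at least 2-fold from vehicle at any time, and their median log2 ratio lay between -0.11 and 0.09. The part of endothelial content in the Vegfa values was not tested.

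Single markers of that list lay on different sides of vehicle. Cd34, a surface protein of endothelial and stromal progenitor cells, had a late mean 0.58 ± 0.09 (SE) above vehicle (limma, adjusted p = 0.125), while Lyve1, a hyaluronan receptor of lymphatic vessels, had a late mean 0.50 ± 0.16 below (limma, adjusted p = 0.332). Neither passed, and a second Cd34 probe set read 855.5 on vehicle and 837.1 to 979.2 late.

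The genes of vessel tone were described next, beginning with the dilator. The signal of Adm was 175.1 on vehicle and 302.4, 662.6, 213.4, 98.4, 107.2 and 103.0 from 1 to 24 h. All 3 early arrays lay above vehicle, and all 3 late arrays lay below the floor and below vehicle. The log2 ratios to vehicle were 0.79, 1.92 and 0.29 at 1, 3 and 6 h and -0.26 at the floor later, where the true ratio is lower. The 3 h signal was at least 4.54-fold above the late arrays, taken at the floor, and 3.10-fold above that at 6 h. Adm counted as at least 2-fold higher at 3 h along with Vegfa, 2 of the 13 probe sets, beside 1.18% of all tested that were higher and 2.01% in either direction. At 6 h Vegfa alone counted, beside 1.25% higher and 2.45% in either direction.

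In limma the early mean of Adm was 1.00 ± 0.58 (SE) above vehicle (adjusted p = 0.907), and the late mean was 0.26 ± 0.58 below (adjusted p = 0.90). Late minus early was -1.26 ± 0.41, with an interval of -2.28 to -0.24 (limma, adjusted p = 0.410). That size is limited by the floor on the late side. The early mean rested on the 3 h array: without it the difference from vehicle was 0.54, and late minus early was -0.80. The course of Adm was narrower than that of Vegfa, whose 6 h signal was still 2.56-fold above vehicle.

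The partner proteins of the Adm receptor were on the array. Calcrl itself was at the floor on every array. Ramp3, one of the accessory proteins that make Calcrl a receptor for Adm, read 401.8 on vehicle and 577.5, 1417, 790.9, 510.7, 389.4 and 437.2 from 1 to 24 h. It was highest at 3 h, its early arrays lay above its late arrays, and its log2 ratios at 3 and 6 h were 1.82 and 0.98. The early mean was 1.11 above vehicle (limma, adjusted p = 0.815). Ramp2, which was picked after its values were seen, read 1364.4 on vehicle and 1243, 2148.9, 2593.1, 1695, 1347.6 and 1409.8 from 1 to 24 h, and was highest at 6 h. Ramp1, which turns Calcrl into a receptor for the related peptide Cgrp, lay between 1280.8 and 1676.7 on all arrays. At 3 h the dilator and both partners of its receptor were above vehicle, while Ramp1 had a log2 ratio of 0.15.

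**Figure D3:**
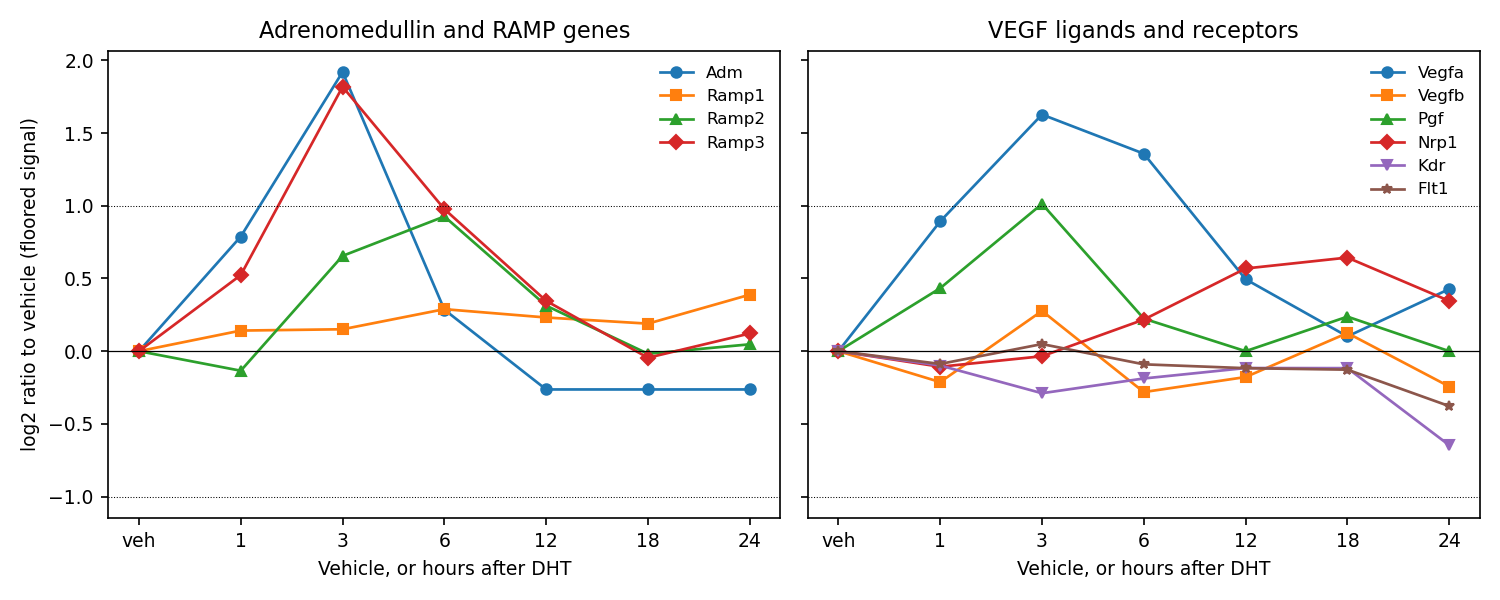
Log2 ratio to vehicle of Vegfa, Adm and their partner genes at 1 to 24 h after DHT, 1 array per point, after signals under the floor were raised to it. Adm, Ramp3 and Vegfa reach 1.92, 1.82 and 1.63 at 3 h and all lie under 0.5 from 12 h on.

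Edn1, the main constrictor peptide of the endothelium, had 2 probe sets. The brighter one read 458.9 on vehicle and 325.9, 371.2, 374.7, 340.4, 288.2 and 396.4 from 1 to 24 h. All 6 DHT arrays lay below vehicle, the lowest at 18 h with a log2 ratio of -0.67. The late mean was 0.44 ± 0.22 (SE) below vehicle (limma, adjusted p = 0.511). The other probe set read 229.4 on vehicle and 212.8, 198.3, 241.2, 189.0, 154.0 and 195.0 from 1 to 24 h. It too was lowest at 18 h, its early arrays lay above its late arrays, and late minus early was -0.28 ± 0.12 (limma, adjusted p = 0.517). Both probe sets thus placed Edn1 lowest at 18 h, at -0.67 and -0.57, below the 2-fold threshold.

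Partners of Edn1 gave little more. Of its receptors, Ednrb was at the floor on every array and Ednra was not on the array, so it was not measured. Ece1, the enzyme that cuts the Edn1 precursor to the active peptide, was lowest at 12 h with a log2 ratio of -0.75. In the vascular tone list, 41 genes were listed, 32 were on the array and 18 passed the filter, of which 4 were at least 2-fold from vehicle at 1 or more times (Ramp3, Bdkrb1, Ptger4 and Kcnj8), beside 7.6% of all tested probe sets. Kcnj8, a subunit of the potassium channel that relaxes vessel muscle when energy is low, had log2 ratios of -1.17 at 12 h and -1.53 at 18 h; its signal was 814.2 on vehicle and 281.3 at 18 h, and its late difference from vehicle did not pass (limma, adjusted p = 0.285). Bdkrb1, a receptor for bradykinin fragments, had ratios of -1.47 at 1 h and -1.11 at 24 h but 0.06 at 3 h, so its low values did not form 1 course. Ptger4, the receptor through which prostaglandin E2 relaxes vessels, was -1.12 at 18 h. Nos3, which makes nitric oxide in the endothelium, read 276.9 at 3 h and 36.3 to 67.2 on the other arrays, under the floor; it was picked after its values were seen and did not reach the signal needed to count.

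Early arrays lay above late arrays without overlap for 4 of the 13 probe sets (Vegfa, Adm, the brighter Flt1 and the dimmer Edn1), beside 6.61% of all tested probe sets. The reverse order was seen for 0 of 13, beside 8.18%. The 4 differ in size: the mean gap was 1.26 log2 units for Adm and 0.95 for Vegfa, and 0.28 or less for the others. Apart from Vegfa and Adm, the 11 other probe sets had log2 ratios between -0.67 and 0.54. Over the 10 genes, with the brightest probe set of each, the median log2 ratio to vehicle was -0.09, 0.02, -0.08, -0.10, -0.12 and -0.23 from 1 to 24 h, while that of all 6326 genes was 0 at each time. The number of the 10 above vehicle was 3, 5, 2, 2, 3 and 3. The number below was 7, 5, 8, 8, 7 and 7, beside 2960 to 3150 of all 6326 genes. Vegfc is among those below at 5 times, on arrays under the floor, with a vehicle signal that just cleared it.

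Genes whose course was most like that of Vegfa or Adm were named by Pearson's r of log2 signal over the 7 arrays, among 754 genes with a range of at least 1 log2 unit. For Vegfa they were Jmjd6, a nuclear hydroxylase (r = 0.96), Ramp3 (r = 0.95) and Bcat1, an enzyme of branched-chain amino acid breakdown (r = 0.94). For Adm they were Ier3, an immediate early gene (r = 0.98), Gadd45g, a stress and growth arrest gene (r = 0.97), and Pgf (r = 0.95). Gadd45g read 435.4 on vehicle and 1481.4, 3182.8, 790.1, 429.9, 268.2 and 348.9 from 1 to 24 h, and so shared the early peak and the low late arrays of Adm. The r between Vegfa and Adm was 0.80, which gave Adm rank 25 for Vegfa. These r values are a description over 7 arrays that share the same peak array, and genes with 1 high array reach a high r easily.

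The other genes of the lists are given for comparison. Of the wider VEGF and angiopoietin list, 34 symbols were listed, 24 were on the array and 19 passed the filter, of which Pgf alone was at least 2-fold from vehicle, at 3 h. Its median log2 ratio lay between -0.19 and 0.01. Of 34 genes that low oxygen is known to induce, 27 were on the array, 25 passed and 4 were at least 2-fold at 1 or more times, beside 7.6% of all tested probe sets: Hk2 higher at 3 h, P4ha1 higher at 6 h, Slc2a1 higher at 12 h and Pfkfb3 lower at 1 h. The hypoxia list had medians from -0.01 to 0.18, and the 25 genes at 3 h split into 12 above and 13 below vehicle. Slc2a1, the main glucose transporter of most cells, had a late mean 0.81 ± 0.33 (SE) above vehicle (limma, adjusted p = 0.426), and P4ha1, a collagen prolyl hydroxylase, an early mean 0.73 ± 0.38 above (limma, adjusted p = 0.893). Of 10 genes of the hypoxia-inducible factors and their control, 8 passed and Hif3a, at -1.27 on the 24 h array, was alone past 2-fold; Vhl, which marks these factors for breakdown, had an early mean 0.58 ± 0.26 below vehicle (limma, adjusted p = 0.824). Over all genes, 2889 lay above and 3150 below vehicle at 3 h.

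Markers of other cell types differed on other arrays. Smooth muscle and pericyte markers (9 of 12 past the filter) had a summed signal of 30652 on vehicle, 28404.8 to 28423.8 on the early arrays and 34374.1 to 45997.6 on the late arrays, and Cnn1, a contractile protein, had a late mean 0.76 ± 0.17 (SE) above vehicle (limma, adjusted p = 0.207). Of these 9, 6 were higher in late minus early at an unadjusted limma p under 0.05, beside 5.76% of all probe sets, and 0 after adjustment. Much of their summed signal is Acta2, Myh11 and Tagln, at 8149.6, 7170.5 and 8030.5 on vehicle. Acta2, Myh11, Tagln and Smtn had late means 0.25 to 0.46 above vehicle, and Rgs5 and Mcam 0.11 and 0.08 above. Notch3 had a late mean 0.57 below vehicle. Des, a muscle filament, was 0.63 below vehicle early and 0.01 below late. Stromal markers (11 of 12) summed to 22529.9 on vehicle, 22140.6 to 28037.1 early and 32186 to 37635.2 late. Much of that sum is Col1a1, a collagen chain that read 7164.2 on vehicle and 14378.8 to 18558.3 late, with a late mean 1.23 above vehicle (limma, adjusted p = 0.252). A dimmer Col1a1 probe set read 3896.3 on vehicle and 3377.3, 9631.7 and 5016.5 at 12, 18 and 24 h. Late means also lay above vehicle for Col1a2 (0.81), Hoxa11 (0.71), Hoxa10 (0.61), Hand2 (0.46), Wnt5a (0.33), Nr2f2 (0.19) and Esr1 (0.04). A dimmer Col1a2 probe set lay below vehicle late, and the dimmer Esr1 probe sets differed in side. Pdgfra, a growth factor receptor of stromal cells, and Pgr, the progesterone receptor, had late means 0.40 and 0.50 below vehicle (limma, adjusted p = 0.570 and 0.513). A dimmer Pdgfra probe set went the other way and lay above vehicle on every DHT array. Its log2 ratios were 0.40, 0.77 and 0.53 at 12, 18 and 24 h. Adipocyte markers (7 of 10, with Pparg at the floor) summed to 6283.3 on vehicle, 4892.1 to 6240 early and 4084.9 to 5030.1 late. On the brightest probe set of each, Adipoq, Lep, Retn, Lpl and Lipe were above the floor on every array, although the protocol removed adhering tissue. Fabp4 was under the floor at 3 h, at 126.9. Cidec was above it on vehicle and at 12 h alone, at 202.7 and 162.9. Within the list Lep, the fat hormone leptin, lay on the other side, with an early mean 1.24 above vehicle (limma, adjusted p = 0.626). A second Lep probe set did not show this: it was under the floor on every array, at 67.4 to 78.5.

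Red blood cell markers had 3 of 11 past the filter and sums of 2246 on vehicle, 2160.9 to 2912.1 early and 2049 to 2678.8 late; Hbb-b2, a globin chain, stood 0.31 and Slc4a1, the red cell anion exchanger, -0.44 from vehicle early. Macrophage markers (9 of 13) summed to 9610.1 on vehicle, 9115.6 to 9466.9 early and 8031.6 to 9795.8 late. C1qb and C1qc, complement chains, were 0.44 and 0.32 below vehicle late. Lyz2 was 0.18, Adgre1 0.15, Csf1r 0.12 and C1qa 0.03 below, while Mrc1 was 0.04, Cd14 0.02 and Cd68 0.01 above. Epithelial markers (11 of 12) summed to 16043.2 on vehicle, 14993.5 to 16884.9 early and 14925.9 to 17071.4 late. Cdh1, the epithelial cadherin, was 0.37 and Krt18, an epithelial keratin, 0.34 below vehicle early. Foxa2 was 0.31, Muc1 0.21, Krt8 0.14 and Epcam 0.06 below early. Krt7 was 0.27, Cldn4 0.27, Krt19 0.19, Ltf 0.17 and Cldn3 0.12 above vehicle early. None of the 11 lists had a gene that passed limma after adjustment. The part of smooth muscle, stroma or fat in the late values of the vascular genes was not tested.

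**Figure D4:**
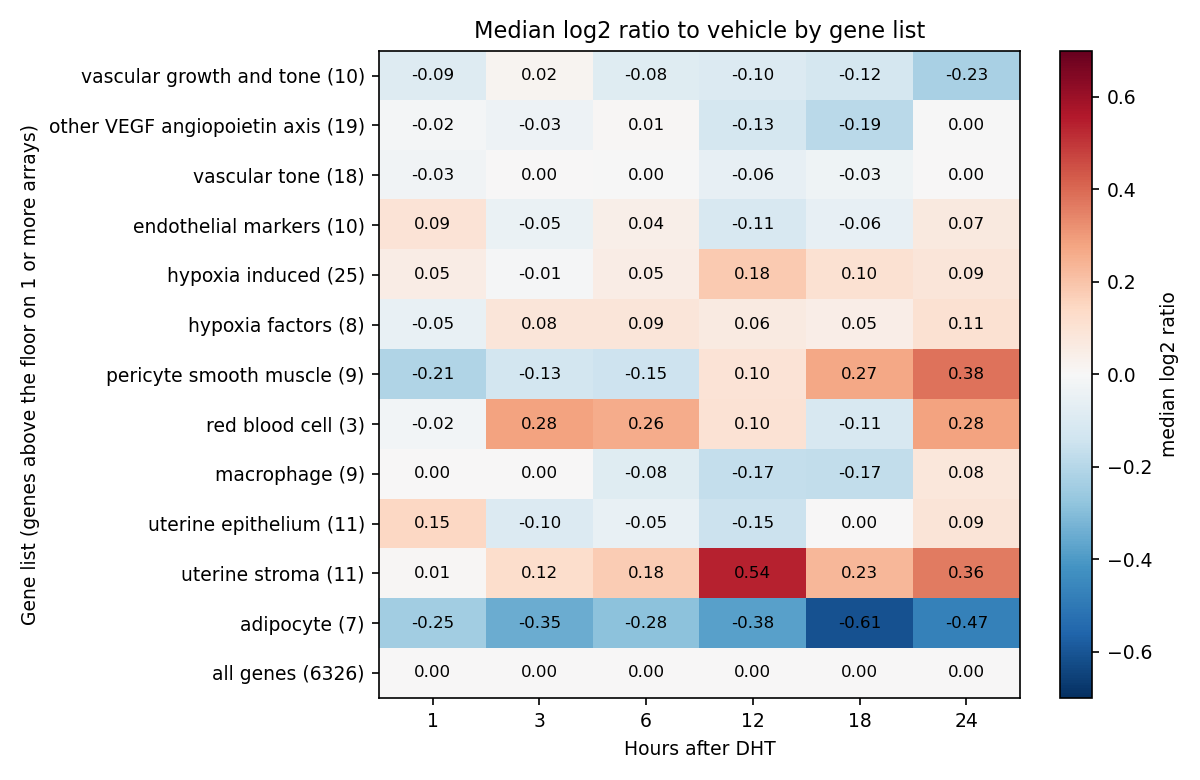
Median log2 ratio to vehicle at 1 to 24 h of the 10 vascular growth and tone genes and of the 11 lists, 1 array per time, with 0 as the median of all genes at each time. The 10 genes stay between -0.23 and 0.02, and the smooth muscle list runs from -0.21 at 1 h to 0.38 at 24 h.

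The spike-in hybridization controls differed between arrays, with a mean log2 ratio to vehicle of -0.02, 0.57, -0.26, -0.36, 0.11 and 0.45 from 1 to 24 h. The arrays' central mean was 500.2 on each, the medians lay between 227.4 and 237.0, and the ratio of 3 prime to 5 prime control signal was 0.828 to 0.888 for Gapdh and 1.03 to 1.19 for actin. Between 4 and 12 probe sets of an array were at least 2-fold from all the others, the most at 3 h.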

How the data were processed

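The deposited values are linear signal intensity made by the authors with MAS5, per the submitters' processing notes; its version is not given in the sources used here. Tested on the values, the arrays shared a central mean over all but the top and bottom 2% of probe sets, and this scaling was kept. Gene symbols came from the platform annotation. Signals under the 40th percentile (145.9) were raised to it and log2 was taken. The filter kept the 8421 probe sets above the floor on at least 1 array. A gene is its brightest probe set that names 1 gene. Single times have 1 array and no test. Phases were compared with limma 3.58.1 in R 4.3.3 (variance trend, 4 residual degrees of freedom, prior 1.69, two-sided, Benjamini-Hochberg at 0.05 over 8421), which was tested on simulated data. Descriptions and figures used Python 3.11.15 with numpy 2.4.6, pandas 2.3.3 and matplotlib 3.10.9. P-values measure only the spread between pooled arrays of different times within a phase, and not the spread between replicates. The number of arrays limits the precision of every value.

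The array titles were followed for times; the design text names 0.5 h and not 18 h. Besides the 10 genes, list genes are named where at least 2-fold from vehicle at 2 or more times, and in lists with none, the 2 with the largest early or late difference; likeness names the 3 genes with the highest r. Genes named outside this rule are cell type markers, receptor partners and list members past 2-fold at 1 time, picked after values were seen. The members, lists and tests were chosen with earlier results of these data known. Alternatives changed the floor, fold threshold, filter, variance trend and normalization, and left out each array.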

Additional observations from a re-analysis of the deposited data

Results flagged for a closer look

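Adm lay on opposite sides of vehicle in the 2 phases. All 3 early arrays were above vehicle and all 3 late arrays were below it, and late minus early was -1.26 log2 units (limma, adjusted p = 0.410), which is not past the threshold. The late signals, 98.4 to 107.2, were all under the floor of 145.9. The cause was not tested.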

How the results depend on the processing

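In limma 0 of 13 probe sets passed after adjustment under every alternative fitted; with the floor at the 60th percentile only 5 were tested. The count at least 2-fold from vehicle became 4 (3 h) and 2 (6 h) with the floor at the 20th percentile. This added Flt1, higher, at both times and Vegfc, lower, at 3 h. With the floor at the 60th it became 0 at both, and the log2 ratios were 0.78 (3 h) and 0.52 (6 h) for Vegfa and 0.88 (3 h) for Adm. A threshold of 1.5-fold gave 2 at 1 h (Vegfa and Adm) and 2 at 18 h (Tie1 and Edn1, lower), and 3-fold gave 0 at 6 h. The shares of all tested probe sets given above hold for the main floor and 2-fold only. These other counts therefore have no share beside them and are not set against the whole array. Of 418 recomputed differences, 17 changed sign, all with a size of 0.10 or less as first fitted. Late minus early of the brighter Edn1 became 0.011 (floor at the 60th percentile), late minus vehicle of Angpt2 0.011 (quantile normalization) and late minus vehicle of Vegfc -0.11 (floor at the 20th percentile). The others changed sign when 1 array was left out, which gave late minus vehicle of -0.034 to 0.097 for Tek, -0.073 to 0.0077 for Angpt2 and -0.0089 to 0.016 for Vegfc. It gave late minus early of -0.14 to 0.15 for Vegfb, -0.19 to 0.076 for Kdr, -0.19 to 0.043 for the brighter Edn1, -0.22 to 0.090 for the brighter Tie1 and -0.022 to 0.098 for the dimmer, and early minus vehicle of -0.25 to 0.032 for Vegfb. For Vegfa it gave 1.13 to 1.49 (early minus vehicle) and -1.15 to -0.78 (late minus early), and for Adm 0.54 to 1.35 and -1.62 to -0.80, the smallest of each without 3 h. The cause was not tested.

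Over all probe sets, 23 passed for early minus vehicle and 26 for late minus vehicle; these became 121 and 137 without the filter, 14 and 15 with quantile normalization, 0 and 0 without the variance trend (541 and 985 at an unadjusted p under 0.05), 31 and 42 with the floor at the 60th percentile, and 0 to 10 and 0 to 20 with 1 array left out. Late minus early passed for 0 (863 unadjusted) and for 0 to 1 with 1 array left out. Without the vehicle array only late minus early could be fitted. No paired analysis was possible because each group is 1 array. Signal near the floor limits Vegfc, Angpt2, the dimmer Flt1 and late Adm.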
